A study of Homo sapiens with 8 samples.

Results

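Promoter sites open in every library were examined in LX-2 cells by ATAC-seq, an assay in which a transposase inserts sequencing adapters where chromatin is open. Merging the peaks of the 8 deposited lists wherever they shared 1 bp or more gave 102366 regions. Of these, 24246 had a peak in all 8 lists, and 9186 of those had their centre within 1 kb of an annotated transcription start. The 9186 sites were thus chosen by their peaks being present in every list, and the strongest, weakest and most variable among them were selected on the same measured values. These properties are given as a description. The remaining 15060 regions with a peak in every list served for comparison.

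LX-2 cells are immortalised and derive from human hepatic stellate cells, which make the scar matrix of the liver when activated. The cells carried no engineered allele, were labelled wild type, and had been grown on fibronectin-coated polyacrylamide gels. The groups were D2 soft (about 2 kPa, collected on day 2), D2 stiff (about 40 kPa, day 2), D4 soft (2 kPa, day 4) and D4 stiff (40 kPa, day 4), with 2 replicate libraries in each. The study's methods describe the sequencing replicates as biological, and the labels do not say how the cultures were separated. The p-values below measure the spread between these libraries. A single cell line grown on its own models stellate cells without the other cells of the liver.

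A promoter is the DNA around a transcription start where general factors and RNA polymerase II assemble, and in active genes it is kept free of nucleosomes. Promoters of genes that all cells need tend to be rich in CpG dinucleotides and to carry short boxes such as the GC box (bound by SP and KLF factors), the CCAAT box (bound by NF-Y) and the ETS site. Cell type genes depend more on distal enhancers, which in activated fibroblast-like cells often carry sites for AP-1 and TEAD.

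The ends of the ranking were first set side by side as sequence, because they differed in the CCAAT box. Sites were ranked within each list by fold enrichment, which is the pileup of fragments at the peak summit over the background expected around it. The percentile of a site runs from 0 for the lowest to 100 for the highest peak of a list, and its mean was taken over the 8 lists. The 4 highest-ranked sites are shown that are named after a gene with a symbol and whose window lies off any annotated exon. Each sequence is the 201 bp around the summit on the plus strand of GRCh37, and capitals mark the CCAAT box, the GC box (GGGCGG) and the E-box (CACGTG), each on either strand. The windows were chr1:143913339-143913539 at FAM72D, chr5:35047033-35047233 at AGXT2, chr1:155715356-155715556 at MSTO2P and chr16:33963108-33963308 at LINC00273. These sites held positions 1, 4, 9 and 29 of 9186.
FAM72D: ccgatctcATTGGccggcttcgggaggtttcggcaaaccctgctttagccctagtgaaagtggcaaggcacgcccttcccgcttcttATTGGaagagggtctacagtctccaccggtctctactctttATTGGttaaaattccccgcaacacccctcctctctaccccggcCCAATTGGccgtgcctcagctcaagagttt
AGXT2: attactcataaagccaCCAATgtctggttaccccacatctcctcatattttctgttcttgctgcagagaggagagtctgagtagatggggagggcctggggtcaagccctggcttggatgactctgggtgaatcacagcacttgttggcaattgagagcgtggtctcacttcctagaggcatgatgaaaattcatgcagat
MSTO2P: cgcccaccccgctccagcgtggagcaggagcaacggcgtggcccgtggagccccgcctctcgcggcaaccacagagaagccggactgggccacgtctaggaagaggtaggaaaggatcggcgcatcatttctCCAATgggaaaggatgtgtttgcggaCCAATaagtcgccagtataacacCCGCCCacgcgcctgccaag
LINC00273: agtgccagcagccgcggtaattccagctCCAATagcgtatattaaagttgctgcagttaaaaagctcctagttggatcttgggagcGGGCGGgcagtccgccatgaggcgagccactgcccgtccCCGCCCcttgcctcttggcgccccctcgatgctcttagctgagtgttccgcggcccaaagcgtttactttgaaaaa
All 4 windows contained the letters CCAAT on either strand, and whether they act as a promoter element was not tested. In FAM72D, whose window had 55.2% GC, the box occurred on both strands. In the GRCh37 assembly FAM72D and LINC00273 have 2 near-identical copies elsewhere and MSTO2P has 1, whereas AGXT2 has 0. Reads that such copies share cannot be told apart, so the ranks of these 3 sites may not belong to 1 locus. Copies that the assembly leaves out were not counted.

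The 4 lowest-ranked sites that met the same conditions were SIN3A at chr15:75743007-75743207, FIBP at chr11:65656041-65656241, SH2B3 at chr12:111843344-111843544 and MSANTD3 at chr9:103190218-103190418. Their positions were 9180, 9176, 9175 and 9174.
SIN3A: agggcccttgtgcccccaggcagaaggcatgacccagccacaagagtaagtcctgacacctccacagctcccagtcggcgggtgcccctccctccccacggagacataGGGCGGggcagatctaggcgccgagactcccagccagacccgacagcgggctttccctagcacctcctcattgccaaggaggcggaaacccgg
FIBP: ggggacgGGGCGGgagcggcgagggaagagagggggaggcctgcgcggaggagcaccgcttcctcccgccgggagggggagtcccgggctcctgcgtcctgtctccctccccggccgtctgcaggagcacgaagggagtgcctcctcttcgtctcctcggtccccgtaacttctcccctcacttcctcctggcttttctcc
SH2B3: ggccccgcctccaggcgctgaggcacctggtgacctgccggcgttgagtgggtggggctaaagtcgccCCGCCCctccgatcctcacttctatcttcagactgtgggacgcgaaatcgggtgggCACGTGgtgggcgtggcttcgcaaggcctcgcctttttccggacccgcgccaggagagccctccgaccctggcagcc
MSANTD3: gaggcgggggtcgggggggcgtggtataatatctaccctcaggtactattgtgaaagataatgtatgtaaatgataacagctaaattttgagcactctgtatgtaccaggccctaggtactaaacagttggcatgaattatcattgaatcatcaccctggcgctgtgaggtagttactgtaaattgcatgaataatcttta
None of these 4 windows contained a CCAAT box or had a near-identical copy, and the SIN3A, FIBP and SH2B3 windows contained a GC box.

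The sites were next described in each library, to ask how promoters ranked among all open regions. The lists held 29789 to 72840 peaks, and peaks in the promoter sites made up 31.5% of the shortest list, that of D2 soft replicate 1, and 13.2 to 17.3% of the others. The median percentile of the promoter sites was 60.3 in D2 soft replicate 1 and 71.3 to 76.3 in the other 7 libraries. The other regions present in every list had medians of 57.7 to 77.3. Promoter sites were higher in 4 libraries and lower in 4, and the mean difference of −0.49 ± 2.14 points (SD, n = 8 libraries) lay within the library-to-library spread (two-sided exact sign-flip permutation test, 256 arrangements, p = 0.523, adjusted p = 0.564). The adjustment covered a family of 14 such comparisons, and the smallest p that the 256 arrangements allow is 0.00781. All libraries contain the same sites, so these tests show whether a difference recurs from library to library.

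Promoter sites were wider and held more fragments than the other sites. Their median peak width was 601 to 1020 bp against 492 to 746 bp, a difference of 214 ± 49.7 bp (SD, n = 8) that was positive in 8 of 8 libraries (exact sign-flip permutation p = 0.00781, adjusted p = 0.0109). The number of fragments at the summit, recovered from the deposited fold and p-value, had medians of 13 to 54 at promoter sites and 11 to 39 at the others, and was higher in 8 of 8 libraries (exact permutation p = 0.00781, adjusted p = 0.0109). The local background was also higher at promoter sites in 8 of 8 libraries, by 0.720 ± 0.382 fragments (SD, n = 8, exact permutation p = 0.00781). By −log10 p, which grows with the number of fragments, the promoter sites ranked higher in 8 of 8 libraries, by 5.24 ± 1.76 points (SD, n = 8, exact permutation p = 0.00781, adjusted p = 0.0109). The relative standing of promoters thus depended on which of the deposited values was ranked.

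**Figure D1:**
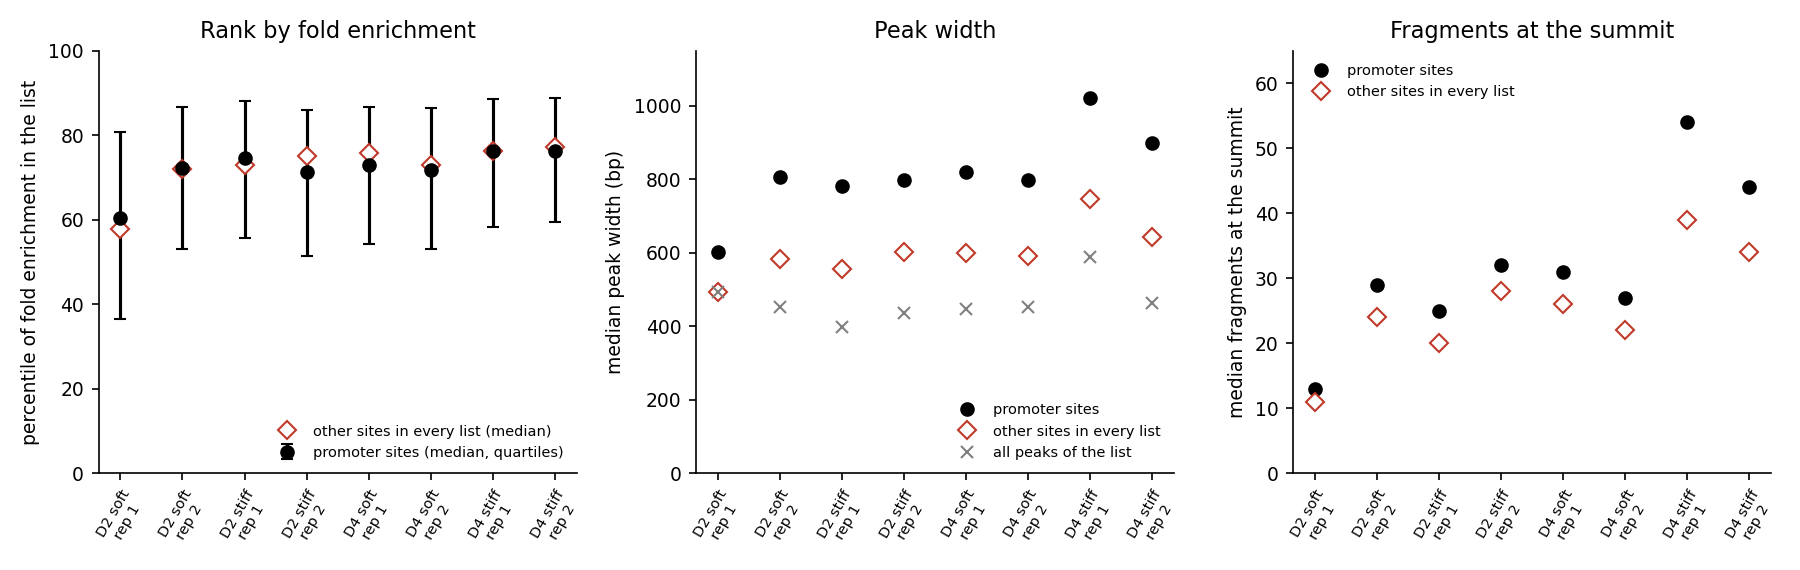
Median percentile of fold enrichment (left, with quartiles for the promoter sites), median peak width in bp (middle) and median number of fragments at the summit (right) in each of the 8 libraries. The 9186 promoter sites (black) overlap the 15060 other sites (red) in rank but lie above them in width and fragments in every library, and D2 soft replicate 1 is lowest in all 3 panels.

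Most sites lay at protein-coding genes. A protein-coding start lay within 1 kb of 85.6% of them, and 11.1% were named after a long non-coding RNA gene. Of 20163 annotated protein-coding genes, 8835 (43.8%) had at least 1 such site and 348 had 2 or more, with 4 each at DST (a cytoskeletal linker) and MAST4 (a kinase). Starts of protein-coding genes on both strands were found at 1007 sites (10.96%), compared with 2.83% of the 9999 promoter regions that had a peak in only 1 to 7 lists. The merged width had a median of 1152 bp and ran from 346 to 4016 bp. The summit lay upstream of the named start at 69.9% of sites, with a median position of −77 bp.

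The limits of the rule fell among sites of middle rank. The 104 sites with a centre 900 to 1000 bp from a start had a median mean percentile of 57.9, and the 92 just outside, at 1000 to 1100 bp, had 63.7. A further 3155 promoter regions lacked a peak in 1 list only, and in 2876 of them (91.2%) the missing list was D2 soft replicate 1, the library with the fewest fragments at its summits. These regions had a median mean percentile of 45.9 over their 7 lists.

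The base composition around the summit set these sites apart from the distal ones. Each motif was looked for on either strand, up to 100 bp from the summit, and shares are given for the promoter sites, then for the other sites in every list. Median GC was 64.7% against 46.8%, and the ratio of observed to expected CpG was 0.807 against 0.198. The GC box (GGGCGG) was present at 55.2% against 7.25%, the ETS site (CCGGAAG) at 14.3% against 1.65% and CCAAT at 31.5% against 23.2%. In the widest window searched around the summit, the CCAAT shares were closer, at 43.9% against 42.4%. The palindromic element TCTCGCGA was present at 1.70% against 0.0332%. The order was reversed for AP-1 (TGAGTCA, 7.54% against 40.8%), TEAD (GGAATG, 9.41% against 23.5%) and the TATA box (TATAAA, 2.44% against 9.77%). Around the most upstream start of every protein-coding gene, the shares were 50.4% for the GC box, 10.7% for ETS, 25.4% for CCAAT and 2.31% for AP-1. These are shares of matching letters, and no binding was measured.

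Among the promoter sites, the share with a CCAAT box fell along the ranking. It was present at 50.5% of the strongest decile by mean percentile and at 20.2% of the weakest decile, and the share fell at each step between them. With deciles formed within each library, the strongest decile had 38.5 to 49.6% and the weakest 20.5 to 23.2%. The difference was 24.5 ± 4.52 percentage points (SD, n = 8) and positive in 8 of 8 libraries (exact sign-flip permutation p = 0.00781, adjusted p = 0.0109). The ETS site differed by 8.98 ± 2.87 points and ACTACAA, the core recognised by ZNF143, by 2.62 ± 0.656 points. Each was positive in 8 of 8 libraries (exact permutation p = 0.00781, adjusted p = 0.0109). A motif is a fixed property of a site, so only the ranking differs between these 8 comparisons. The rankings of the libraries correlated (Spearman's rho 0.535 to 0.810), so the 8 signs are not independent and the p-values describe recurrence only. The AP-1 share differed by −0.40 ± 2.08 points, within the spread between libraries (SD, n = 8, exact permutation p = 0.609). The GC box was higher in the strongest decile in 7 of 8 libraries, by 5.04 ± 7.19 points, which was within the spread between libraries (exact permutation p = 0.0938). Among sites of 60 to 70% GC, CCAAT was present at 48.1% of the strongest and 22.6% of the weakest decile, the GC box at 65.5% and 51.8%, and AP-1 at 3.27% and 7.29%. With deciles by −log10 p, the GC box was present at 57.5% and 47.4%, and AP-1 at 6.10% and 8.81%. These shares were not tested.

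The surroundings changed along the same ranking. Starts of protein-coding genes on both strands were found at 13.5% of the strongest and 5.33% of the weakest decile. The width of the merged region was smaller at the strong end, with a median of 1010 bp against 1252 bp. With deciles formed within each library, it was smaller in 8 of 8 (exact sign-flip permutation p = 0.00781, adjusted p = 0.0109). The merged width is 1 value per site, so these 8 comparisons are not independent and the p-value describes recurrence only. The single peaks had a median width of 781 bp in the strongest and 720.5 bp in the weakest decile. In the deciles between them it was 810 to 859.5 bp. The centre of another region present in every list lay within 5 kb of the centre of 0% of the strongest decile and 22.4% of the weakest decile. The local background is part of the ranked value, so this share is given as a description. A near-identical copy elsewhere in the GRCh37 assembly was defined by at least 95% identity over 90% of the window. It was found for 3.70% of the strongest and 0.544% of the weakest decile.

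**Figure D2:**
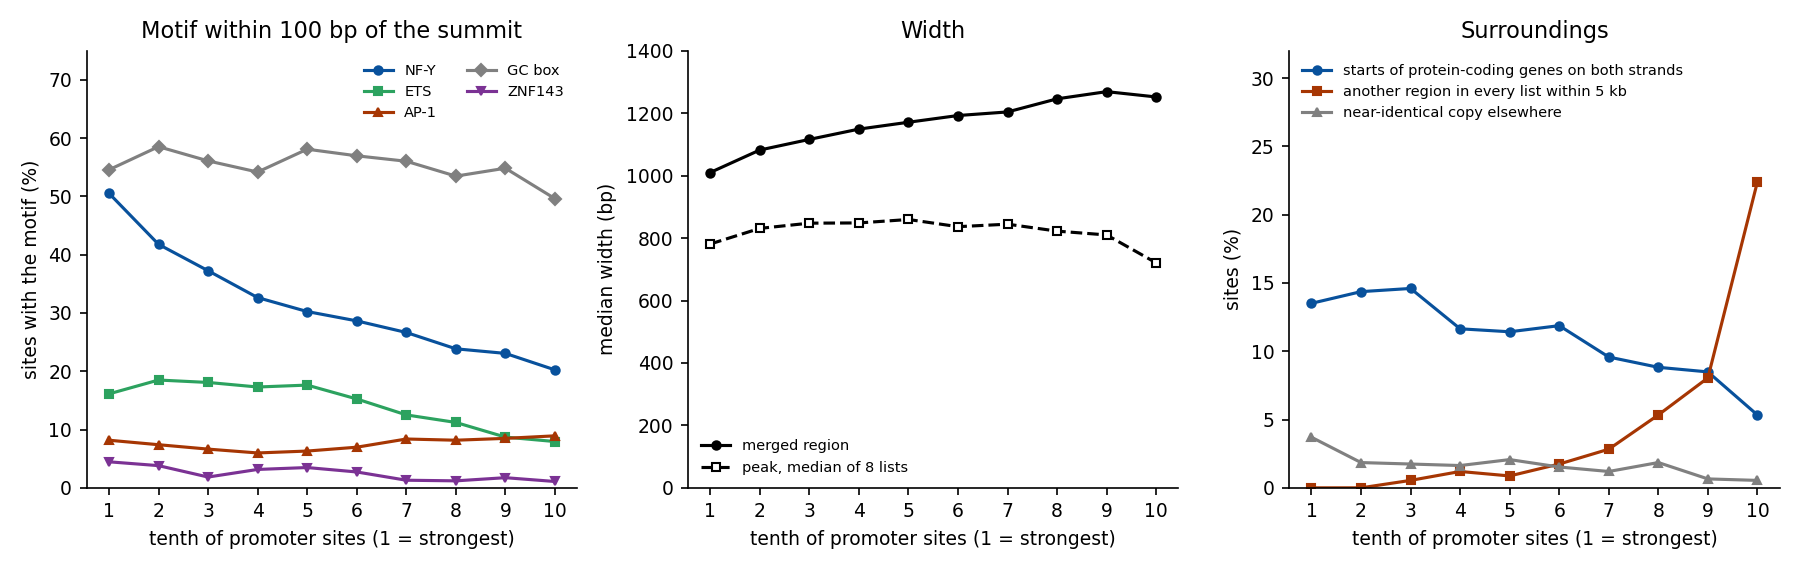
Share of promoter sites with each motif (left, %), median width in bp (middle) and surroundings (right, % of sites) in deciles of the 9186 promoter sites from 1 (strongest by mean percentile) to 10 (weakest). The CCAAT box of NF-Y falls from 50.5 to 20.2% and sites with a neighbouring region rise from 0 to 22.4%, while the AP-1 share stays between 5.98 and 8.92%.

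The 12 strongest sites included 3 FAM72 genes, and they were named after coding genes, long non-coding RNA genes, pseudogenes and 1 small nuclear RNA gene. FAM72D, a member of a gene family that was duplicated on chromosome 1, had fold enrichments of 20.5 and 27.1 for D2 soft, 30.2 and 30.3 for D2 stiff, 29.5 and 27.0 for D4 soft, and 24.8 and 26.9 for D4 stiff. It was the strongest promoter site in mean percentile, with 63 to 232 fragments at its summit. FAM72A (chr1:206137893-206138479) and FAM72B (chr1:120837969-120838977) followed at 16.6 to 23.9 and 15.1 to 22.7. The windows of these 3 genes were 97.0 to 97.5% identical to their closest copy, so reads that the copies share cannot be told apart.

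AGXT2 (chr5:35046595-35047490), which encodes a mitochondrial aminotransferase of glyoxylate metabolism, had fold enrichments of 13.8 to 19.5, and its summit lay 907 bp downstream of the named start. The site of INTS4 (chr11:77705330-77706225), a subunit of the Integrator complex that processes small nuclear RNAs, had 14.3 to 19.8. RNU1-1 (chr1:16839818-16841160), a gene for the U1 small nuclear RNA of the spliceosome, had 14.4 to 18.5 and 88 to 312 fragments at the summit. PKMP3, ZNF519, LINC01504, MSTO2P, VAMP9P and the non-coding gene ENSG00000272769 completed the 12 highest sites. Of these 12, 9 had a CCAAT box within 100 bp, 6 had a near-identical copy and 0 had a neighbouring region within 5 kb.

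The weakest sites were not those with the fewest fragments. CCDC85B (chr11:65657923-65659880) had fold enrichments of 3.82 and 3.57 for D2 soft, 3.88 and 2.998 for D2 stiff, 3.64 and 3.09 for D4 soft, and 3.86 and 3.52 for D4 stiff. Its summit nevertheless held 51 to 187 fragments, over a local background with a median of 18.6. FIBP (chr11:65655457-65656940), whose protein binds acidic fibroblast growth factor, lies just beside it and had 44 to 175 fragments at fold enrichments of 3.34 to 4.73. Over the 12 weakest sites the median number of fragments ranged from 21.5 to 81.5, compared with a median of 30 over all promoter sites. Their median local background was 5.24 to 18.6, compared with 2.23 over all promoter sites and 2.64 to 8.52 over the 12 strongest. The background is the denominator of the fold by which these sites were ranked.

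Other members of the weak end were genes with well-known roles. PKM (chr15:72522806-72524893), the pyruvate kinase of glycolysis, had fold enrichments of 2.94 to 3.96, and SIN3A (chr15:75742730-75743457), a scaffold of histone deacetylase complexes, had 3.29 to 4.25. ADM (chr11:10325295-10326916), which encodes the peptide hormone adrenomedullin, had 2.74 to 4.88, and MAZ (chr16:29819013-29819450), a zinc finger factor, had 2.89 to 4.08. PMF1-BGLAP, ARHGAP22, H1-12P, SH2B3 and the non-coding genes ENSG00000267042 and ENSG00000223725 completed the 12. All of them but ADM had another region present in every list within 5 kb, 0 had a near-identical copy and 4 had a CCAAT box. By −log10 p the 12 weakest sites rose to mean percentiles of 25.3 to 80.0, whereas the 12 strongest stayed at 98.7 or higher. Only 3 of the 12 strongest and 0 of the 12 weakest were shared between the rankings, although the order of all 9186 sites was alike (Spearman's rho 0.845, a description across sites of the same libraries).

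**Figure D3:**
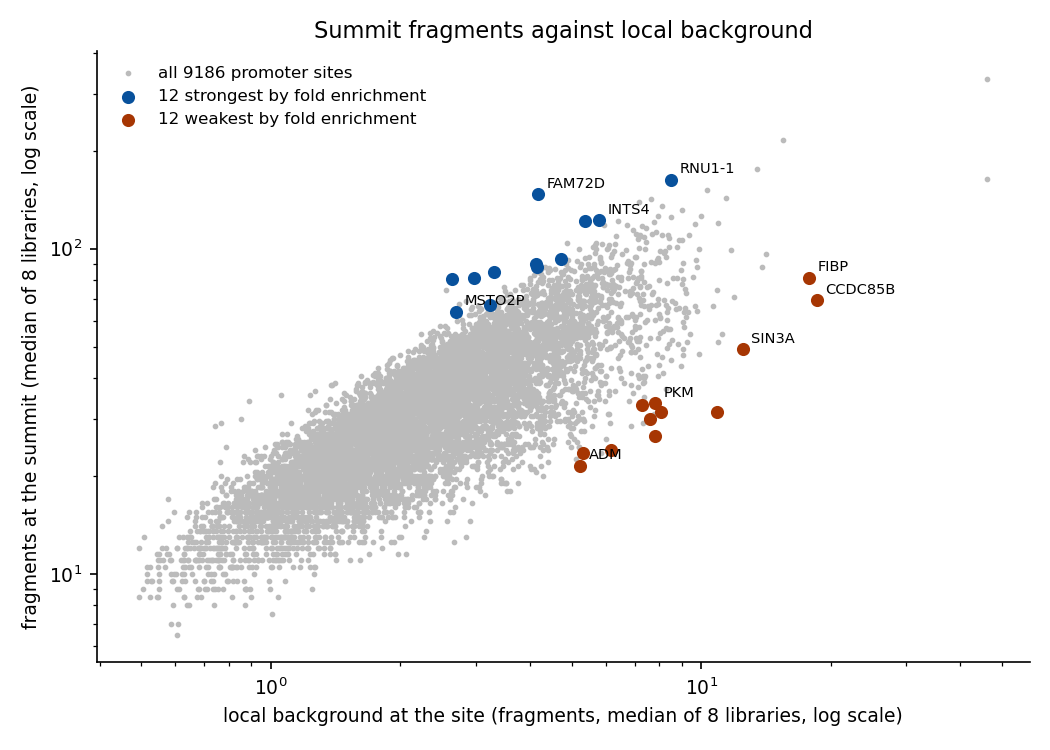
Fragments at the summit against local background, both as the median of 8 libraries on log scales, for all 9186 promoter sites (grey). The 12 strongest by fold enrichment (blue) lie at 64 to 163 fragments over a background of 2.64 to 8.52, and the 12 weakest (brown) at 21.5 to 81.5 fragments over 5.24 to 18.6.

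By −log10 p the highest sites included more genes of small nuclear RNA. FAM72D and RNU1-1 held positions 1 and 2, and WDR74, whose site also holds the start of the U2 gene copy RNU2-2P, held position 4 with a median of 216 fragments and a background of 15.5. Position 3 went to MIR3687, with 333.5 fragments, a background of 46.2 and 2 near-identical copies, which held position 6728 by fold enrichment. KPNB1 (a nuclear import receptor), PCF11 (a factor of transcript termination), INTS4, RNVU1-18 (a variant U1 gene), HMGCS1 (cholesterol synthesis) and PPME1 were also among the 12. The lowest by this measure, such as TMEM100, ANKRD29 and HOXC9, had medians of 8 to 11.5 fragments.

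The order of the sites recurred in libraries not used to form it, though all 8 lists had been used to choose the sites. The 918 strongest sites of the replicate 1 libraries had a median percentile of 94.4 in the replicate 2 libraries, where all promoter sites had 72.2, and 614 of them (66.9%) were again in the strongest decile. The 918 weakest had a median of 33.0 there, and 659 (71.8%) were again in the weakest decile. In every list, 285 sites stood in the top decile of all peaks, and 3 stood in the bottom decile of all peaks.

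Width marked other genes than rank. The widest merged region, 4016 bp, lay over the histone genes H2AC20 and H2BC21 (chr1:149856427-149860442), with single peaks of 430 bp in D2 soft replicate 1 and 3670 bp in D4 stiff replicate 1. ANXA2R-AS1, DLGAP1-AS2, EDIL3 (an integrin ligand of the matrix), ENSG00000286863 and UTRN (utrophin, which links actin to the membrane) followed at 3078 to 3829 bp. At 4 of these 6 regions the widest single peak came from D4 stiff replicate 1, and the median peak width over 8 lists was 894 to 1839 bp at all 6. The narrowest, RNF227 at 346 bp, and NOX5 at 386 bp (an NADPH oxidase) had peaks of 207 to 321 bp and 236 to 385 bp. ENSG00000262879, ENSG00000289281, ENSG00000288555 and ENSG00000235480 made up the rest of the 6 narrowest, at 365 to 393 bp. The mean percentiles of the 6 widest were 23.3 to 49.2, and those of the 6 narrowest 30.5 to 94.4.

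Genes of general cell function were then compared with genes of stellate cells, from lists of pathways and markers. Most genes of the shared machinery had a site. These were 63 of 79 cytosolic ribosomal protein genes (median of mean percentiles 72.1), 28 of 30 spliceosome genes (76.3), 27 of 31 proteasome genes (77.0), 17 of 20 cytosolic aminoacyl-tRNA synthetase genes (80.0) and 24 of 25 chaperone genes (76.5). For 8835 of 20163 protein-coding genes the share was 43.8%, and the median over all promoter sites was 71.0. RPS29, a protein of the small ribosomal subunit, ranked highest of its list at a mean percentile of 98.5, and RPL41, of the large subunit, lowest at 12.4. HARS1 (histidyl-tRNA synthetase) stood at 97.0, PSMC4 (a proteasome ATPase) at 97.3 and PSMD1 (another proteasome subunit) at 33.7. EIF3C, a translation initiation factor, had no peak in any list.

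Further lists of the shared machinery lay in the same range. The translation initiation factors had 28 of 34 genes (median 74.6), from EIF4A2 at 23.8 to EIF2B1 at 92.4. RNA polymerase II and general factors had 26 of 31 (75.8), from POLR2H at 42.4 to GTF2H4 at 93.2. Respiratory complex I had 29 of 37 (68.2), from NDUFS6 at 38.0 to NDUFA2 at 98.3. DNA replication and mitosis genes had 23 of 28 (77.2), from MKI67, the proliferation marker, at 37.5 to AURKA, a mitotic kinase, at 96.8. In the spliceosome list SF3B2 stood at 95.4 and SF3B3 at 24.6, and in the chaperone list DNAJB1 stood at 92.9 and HSPB1 at 23.1. CARS1 was the lowest of the synthetases at 61.4.

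Lists tied to matrix and mechanics had sites of lower rank by fold enrichment. The medians were 50.9 for 23 of 36 actin cytoskeleton and adhesion genes, 53.9 for 15 of 32 extracellular matrix genes of fibrosis, 51.3 for 10 of 14 AP-1 genes and 51.4 for 11 of 15 genes of YAP, TEAD and their targets. Replication-dependent histone genes had 36 of 47 and a median of 51.5, from H3C12 at 9.99 to H2BC6 at 80.0. Within the matrix list TGFBI, a TGF-beta induced matrix protein, stood at 80.2 and FN1 (fibronectin) at 28.4. Among the mechanical genes ANKRD1, a target of YAP, stood at 91.9 and AJUBA, a LIM protein of adhesions, at 9.61. LIMS1 (84.2) and PTK2 (28.3) bounded the adhesion list, and ATF7 (87.3) and BATF3 (31.0) the AP-1 list. JUNB, JUND, CCN1 and CCN2 had no promoter site in every list. No set test was run on these lists. Their medians were not taken by −log10 p, by which the standing of promoter sites differed.

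ZNF-named zinc finger genes, many of which encode KRAB repressors, had 313 of 515 genes with a site and a median of 76.9, from ZNF462 at 13.4 to ZNF519 at 99.7. Olfactory receptor genes had 1 of 415 with a site, OR1F1 at 22.1, and 15 with a peak at a start in at least 1 list.

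**Figure D4:**
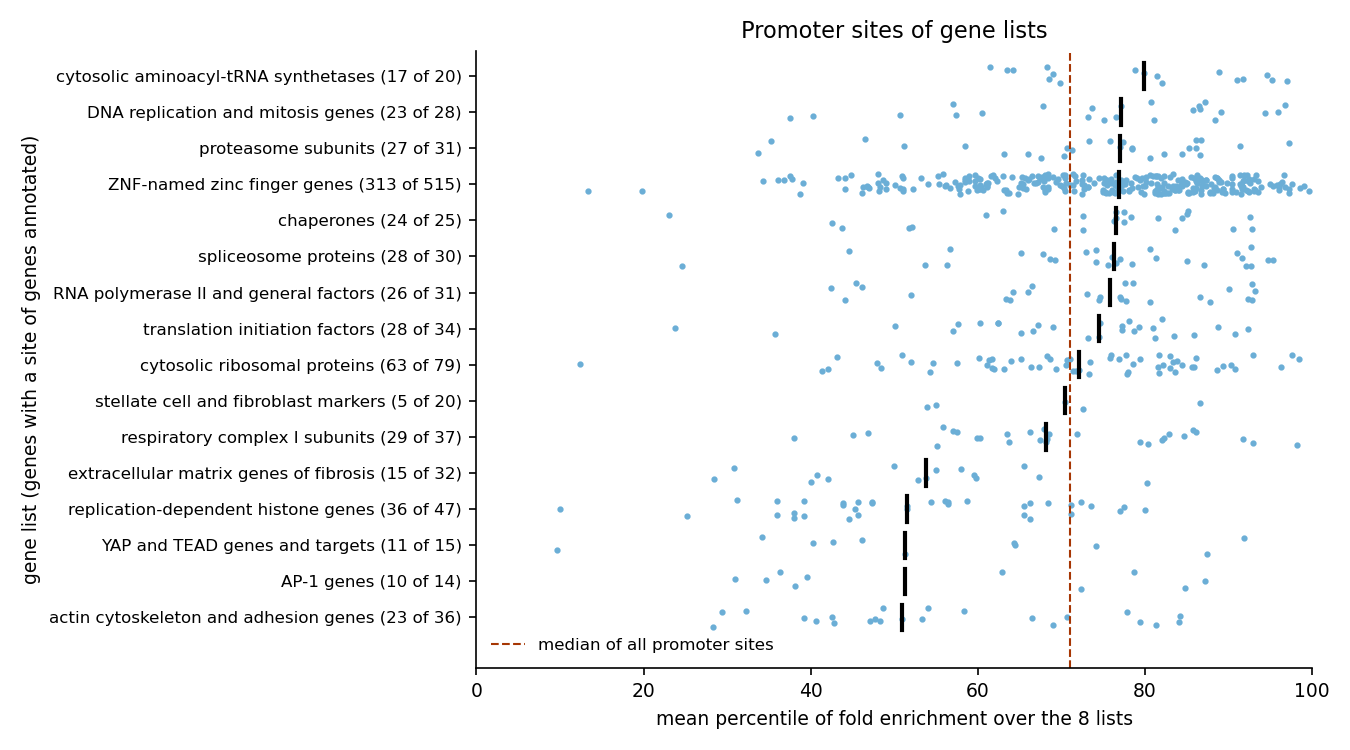
Mean percentile of fold enrichment over the 8 lists for the promoter sites of each gene list (points, 1 per gene, with vertical jitter), with the list median (bar) and the median of all promoter sites, 71.0 (dashed). Lists of general machinery lie at medians of 68.2 to 80.0, and the lists of matrix, adhesion, AP-1, YAP and histone genes at 50.9 to 53.9.

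The cell type label was checked with defining markers. Of 20 stellate cell and fibroblast markers, 5 had a promoter site in every library, and 11 had a peak in any list. They were ACTA2 (smooth muscle actin, mean percentile 86.6), TAGLN (transgelin, 72.6), PDGFRB (the PDGF receptor beta, 70.5), COL1A1 (collagen I, 55.0) and VIM (vimentin, 53.9). LRAT, which makes retinyl esters in quiescent stellate cells, and DES (desmin) were among the 15 without a site. PDGFRA, THY1, COL1A2, COL3A1, DCN and LUM were also among these. LRAT, DES, PDGFRA, COL3A1, DCN and LUM had no peak at a start in any list. The share of these markers with a site was 25%, compared with 43.8% of all protein-coding genes. A site was found for 0 of 18 hepatocyte, 0 of 10 endothelial and 0 of 9 cholangiocyte markers, of which 5, 3 and 3 had a peak at a start in at least 1 list. Macrophage markers had 2 of 11, CD68 at 80.8 and CD14 at 53.8, and lymphocyte markers had 1 of 12, CD8A at 51.1. An open promoter does not measure the level of the transcript.

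The spread of rank between groups was set against the spread between replicates. The difference between the highest and the lowest of the 4 group means had a median of 17.2 percentile points, compared with 19.3 at the other sites in every list. The mean gap between the 2 replicates of a group had a median of 12.1 points, compared with 13.1. A spread of under 10 points was found at 2021 sites (22.0%) and one of over 50 points at 74 (0.806%). The D2 soft group was lowest at 47.8% of promoter sites and at 717 of the 919 with the widest spread, and it holds the library whose promoter sites had the lowest median percentile. When sites were ranked among the promoter sites alone, D2 soft was lowest at 27.2% of sites and D4 stiff at 28.1%. In the decile with the widest spread of that ranking, D2 soft was still lowest most often. It was lowest at 393 sites there, compared with 171 to 183 for each other group. The rank order correlated at 0.535 to 0.601 between D2 soft replicate 1 and each other library and at 0.705 to 0.810 among the other 7 (Spearman's rho, a description over 9186 sites).

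The largest spread was found at VWA3B (chr2:98702964-98703840), a little studied gene, with percentiles of 8.40 and 0.923 for D2 soft, 52.9 and 49.5 for D2 stiff, 37.6 and 39.4 for D4 soft, and 74.2 and 76.9 for D4 stiff. This site was picked for the largest spread of the 9186, so the separation of its groups follows largely from the choice. PACC1 (chr1:212587844-212588594), a proton-activated chloride channel, had 9.32 and 19.8 as its lowest and 80.4 and 86.5 as its highest values, in D2 soft and D4 stiff. RGPD8 (chr2:113190010-113191703), a member of a duplicated family with 2 near-identical copies, had 96.7 and 95.1 in D4 stiff, but 7.54 and 79.7 in D2 soft. RNF32, ODAD2 (a protein of motile cilia) and COX19 (a copper chaperone factor of cytochrome oxidase assembly) and the sites of MATN2 and TMEM74 completed the 8, at spreads of 59.8 to 65.4 points. These 8 sites had medians of 11 to 18 fragments, fewer than the 30 of all promoter sites. The choice depended on the ranking. Among the promoter sites alone RGPD8 had the largest spread, at 85.0 points, and VWA3B and PACC1 were not among the 8 largest. Among sites of middle rank, SEPTIN9 (mean percentile 25.02), GATA2 (28.7), ENSG00000259754 (65.1) and SLC35F2 (74.2) had the smallest spread, at 0.741 to 2.02 points. At GATA2, a factor of blood and endothelial development, the single libraries still ran from 10.7 to 45.8.

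Differences between groups were tested with limma on normal scores of the within-list rank over all 24246 regions, with Benjamini-Hochberg adjustment. On day 2, 0 promoter sites were called at an adjusted p under 0.05, when 0.00412% of all regions tested were called. An unadjusted p under 0.05 was found at 568 promoter sites (6.18%), compared with 8.55% of the other sites. On day 4, 2 promoter sites were called, both higher on the stiff matrix, when 0.00825% of all regions were called. For stiff against soft averaged over days 1 promoter site was called, beside 0.00825% of all regions. For D4 against D2 averaged over matrices 0 were called, beside 0% of all regions. Here 552 promoter sites (6.01%) had an unadjusted p under 0.05, compared with 7.46% of the other sites. For the interaction of stiffness and day 0 were called, beside 0% of all regions. Here 413 promoter sites (4.50%) had an unadjusted p under 0.05, compared with 5.74% of the other sites. The test of any difference among the 4 groups called 0, beside 0% of all regions. Its unadjusted p was under 0.05 at 504 promoter sites (5.49%), compared with 8.26% of the other sites. With quantile-normalised log2 fold enrichment in place of ranks, limma called 0 promoter sites in all 5 comparisons. No other test tool was run. The share of sites with an unadjusted p under 0.05 on day 4 was 4.26% for promoter sites and 6.01% for the other sites.

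The 2 called sites lay at long non-coding RNA genes. ENSG00000290854 (chr1:1677648-1678261) had percentiles of 75.7 and 99.1 for D2 soft, 99.9 and 99.0 for D2 stiff, 72.7 and 61.2 for D4 soft, and 99.97 and 99.96 for D4 stiff. Its day 4 fold enrichments were 9.36 and 7.67 in soft and 18.8 and 19.95 in stiff libraries, from 14 and 11 against 57 and 46 fragments at the summit. The difference in normal score was 3.44 ± 0.528 (SE, limma adjusted p = 0.0110) on day 4 and 2.30 ± 0.373 averaged over days (adjusted p = 0.0288). TSBP1-AS1 (chr6:32222836-32223722) had day 4 percentiles of 77.9 and 43.6 with the soft matrix and 99.4 and 99.9 with the stiff one, a difference of 2.96 ± 0.519 (SE, limma adjusted p = 0.0496). Its day 2 percentiles were 85.0 and 71.8 in D2 soft and 78.9 and 89.6 in D2 stiff. Both day 4 calls were lost when any 1 of the 4 day 4 libraries was left out, by the rank of −log10 p and with quantile-normalised log2 fold enrichment. The call averaged over days was lost in 6 of the 8 fits that left out 1 library, namely without D2 soft replicate 1, D2 stiff replicate 1 or any day 4 library (limma adjusted p = 0.0946 to 0.455). The call at TSBP1-AS1 was also lost without either D2 stiff library (limma adjusted p = 0.100).

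The day 2 result depended on 1 library. Leaving out D2 soft replicate 2 makes D2 soft replicate 1 the only library of its group. In that fit limma called promoter sites on day 2, some higher and some lower on the stiff matrix. The lone library is then assumed to vary like those of the other groups. Counts from such fits are therefore given only as ranges among the processing alternatives, and not as results. Without the same library promoter sites were also called for stiff against soft averaged over days and for D4 against D2. Without D2 soft replicate 1, no promoter site was called on day 2 or averaged over days, while calls on day 4 remained. D2 soft replicate 1 had a median of 13 fragments at the promoter summits, compared with 25 to 54 in the other libraries. The part of this in the calls was not tested.

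**Figure D5:**
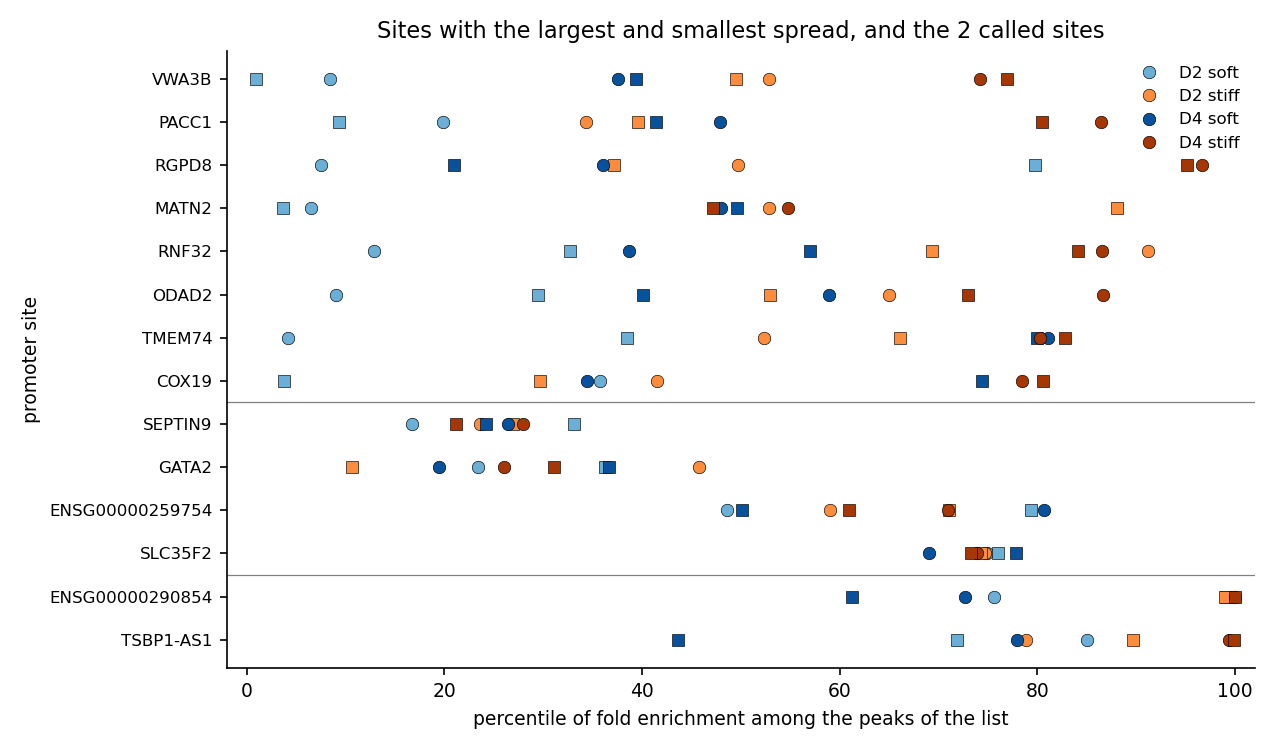
Percentile of fold enrichment in each of the 8 libraries (circles, replicate 1; squares, replicate 2; colours, groups) for the 8 promoter sites with the largest spread of group means, the 4 with the smallest among sites of middle rank, and the 2 called on day 4. At VWA3B, picked for the largest spread, D2 soft lies at 8.40 or lower and D4 stiff at 74.2 or higher.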

How the data were processed

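The measured values were the ATAC-seq peaks of 8 LX-2 libraries, 1 deposited list per library and 2 libraries per group as labelled. Per the labels and the submitters' processing notes, the authors trimmed reads with Trim Galore, mapped them to hg19 with Bowtie2 2.4.1 and ran MACS2 separately for every library, with a q-value threshold of 0.05. Picard and bedtools 2.24.0 are also named. The MACS2 version and options, read filters and the transposase offset are not given in the sources used here. The deposited ratio is the fold enrichment at the summit over the background expected locally. The deposited −log10 p and −log10 q values and a score of 10 times −log10 q, as well as the summit position, stand beside it. The authors' own differential comparison was not used. The lists give no read totals, so depth is known only through the fragments at summits (medians of 13 to 54 at promoter sites), which were recovered from the deposited fold and −log10 p. Folds of shallow libraries rest on few fragments.

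Peaks overlapping by 1 bp were merged, and the best-ranked peak of a list stood for a region. Starts were the 110162 of GENCODE release 44 basic transcripts on GRCh37, the build of hg19. The highest-ranked peak gave the summit for motif and copy searches. Tools were Python 3.11.15, pandas 2.3.3, numpy 2.4.6, scipy 1.17.1, pysam 0.24.0, BLAST+ 2.17.0, matplotlib 3.10.9, R 4.3.3 and limma 3.58.1. The limma fit held 4 group means over all 8 libraries and no covariate, and it was tested on simulated data. Alternatives covered the start distance, annotation, q threshold, overlap, list length, ranked value, motif window, scaling, replicate block and leaving out each library.

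A site was named after the nearest protein-coding start, or otherwise the nearest start. Named were the 12 strongest and 12 weakest by mean percentile, the 6 widest and 6 narrowest, the 8 with the largest and 4 with the smallest spread (the latter at mean percentiles of 25 to 75), each called site, and the highest and lowest gene of each list. The sites and lists were chosen with earlier results of these data known. The sites ranked by −log10 p, the other marker genes with values and the genes named as lacking a site were chosen after their values were seen.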

Additional observations from a re-analysis of the deposited data

Results flagged for a closer look

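Among the 4 soft libraries, Dixon's test at the 95% level set D2 soft replicate 1 apart in 5 measures. Peaks in the promoter sites made up 31.5% of its list, and the nearest soft library had 17.3%. The median percentile of the promoter sites was 60.3, and the nearest was 71.9. Their median peak width was 601 bp, and the nearest was 797.5 bp. In this library 4.08% of the promoter sites lay in the lowest decile of the list, and the nearest had 0.762%. The highest decile held 13.3% of them, and the nearest had 18.5%. The 5 came from 16 such tests, and chance flags about 1 in 20 groups. All of them are measures of the same shorter list, so they are not separate observations.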

How the results depend on the processing

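The number of promoter sites stayed within 1.5 times 9186 in every alternative run, from 6357 with lists of equal length to 12064 without D2 soft replicate 1, and leaving out 1 library gave 9174 to 12064. The starts of all annotated transcripts, an alternative chosen after seeing the data, gave 10023. The median percentile, 71.0, was 76.4 by −log10 p and 49.6 when only regions in every list were ranked, and 70.4 to 72.8 with 1 library left out. The difference from the other sites, 0.105 points, was 5.53 by −log10 p and −0.29 to 0.493 with 1 library left out. Of 12 motifs, 9 had a larger share at promoter sites in all 4 settings. The CCAAT difference between the strongest and weakest decile was 22.5 to 33.7 points in all alternatives. The AP-1 difference of −0.75 turned to 0.00918 among sites with no neighbour. By −log10 p the ETS difference of 8.18 points was 2.84 and the GC box difference of 4.96 points was 10.1, and the latter was 13.7 among sites of 60 to 70% GC.

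By limma, the counts of 2 on day 4 and 1 averaged over days became 0 and 0 by −log10 p, and 0 and 0 with quantile-normalised log2 fold enrichment. A fit to the promoter sites alone called 4 on day 4. Each fit that leaves out 1 library has a group with a lone library, which is assumed to vary like the others. The ranges from these fits show only how far the calls depended on single libraries, and are not counts of differing sites. On day 4 the highest count was the same without either D2 soft library. With 1 library left out, counts ranged from 0 to 110 on day 2, 0 to 4 on day 4, 0 to 35 averaged over days, 0 to 21 for D4 against D2 and 0 to 1 for the interaction, each maximum without D2 soft replicate 2. For ENSG00000290854 the day 4 adjusted p ranged from 0.00115 to 0.649 over the alternatives, and for TSBP1-AS1 from 0.0111 to 0.9999.

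Replicate numbers shared between groups did not pair the libraries, since not every correlation of deviations exceeded 0.1. With the number as a replicate block, limma called 0 promoter sites on day 2, 2 on day 4, 1 averaged over days, 0 for D4 against D2 and 0 for the interaction. Having 2 libraries a group and an unknown depth limit what could be detected.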

Other observations

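Promoter sites without a protein-coding gene differed in sequence from the rest. Of 1323 such sites, 25.5% had an AP-1 site within 100 bp of the summit, compared with 4.92% of the 6624 sites at 1 protein-coding gene and 2.18% of the 1007 sites with protein-coding starts on both strands. The ETS site showed the opposite order, at 6.20%, 14.6% and 22.4%. Median mean percentiles were 70.1, 70.3 and 76.1. These shares are descriptions and were not tested.

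GAPDH, the glycolytic enzyme, had a mean percentile of 26.7 by fold enrichment and 87.1 by −log10 p, over a local background with a median of 11.9. JUN, an AP-1 subunit, stood at 62.9 and 97.0. Both genes were looked up after values were seen.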
